A study of Mus musculus with 4 samples.

Results

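The genes described here encode proteins that make ribosomes in the nucleolus. A list of 41 was drawn up by function, and 40 of them were measured among 19938 genes with a probe set annotated to 1 gene symbol. Noc2l was not analysed here. The list covers 6 genes of RNA polymerase I transcription, 9 of the small nucleolar ribonucleoproteins (snoRNPs), 11 of the small ribosomal subunit, 12 of the large subunit (11 measured) and 3 nucleolar proteins with roles in several steps.

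RNA polymerase I transcribes the ribosomal RNA precursor in the nucleolus. Box C/D and box H/ACA snoRNPs modify this precursor, a large complex called the small subunit processome cuts out the RNA of the small subunit, and other factors assemble the large subunit. Nucleoli are known to grow in dividing cells, and granule neuron progenitors, the cells from which Hedgehog-driven medulloblastoma arises, divide in the young cerebellum before they become neurons.

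Levels were read on 4 Affymetrix Mouse Gene 1.0 ST arrays, 1 per sample. The tumours were a medulloblastoma of a PtchLacZ/+ mouse aged 5 months, in which 1 allele of the Hedgehog receptor gene Ptch1 carries lacZ, and 2 medulloblastomas of Math1-Cre;SmoM2 mice aged 2 months and 1 month, in which Cre driven by the Math1 (Atoh1) promoter switches on an active Smoothened in granule neuron progenitors and other cells of that lineage. The control was the whole cerebellum of a wild-type adult, 2 months old. All mice had a mixed background of C57BL/6 and C3H. How many animals gave each sample is not stated, so p-values measure only the spread between these samples. In this order (PtchLacZ/+ tumour, SmoM2 tumour at 2 months, SmoM2 tumour at 1 month, cerebellum) levels are given below as log2 expression values. Every member lay above the median of named genes in each array (6.73 to 6.82), with a lowest level of 7.01.

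The samples matched their labels in marker genes, and rose or fell is used for genes called by the test given below. Atoh1, the progenitor transcription factor, was at 11.98, 11.84 and 11.39 in the tumours and 4.85 in the cerebellum, and Gabra6, a receptor subunit of mature granule neurons, was at 4.64, 7.40 and 7.97 in the tumours and 12.24 in the cerebellum. All 9 measured proliferation markers rose, with a mean level of 10.76, 10.71 and 10.40 in the tumours and 6.06 in the cerebellum. All 7 mature granule neuron markers were lower in every tumour, and 4 of them, not including Gabra6, fell by that test. Their mean level over the 7 was 6.40, 7.75 and 7.97 in the tumours and 11.30 in the cerebellum. Markers of Purkinje cells, oligodendrocytes and astrocytes were also lower in every tumour, apart from the astrocyte marker Gfap. Of 5 Purkinje cell markers 3 fell (mean level 5.49, 7.71 and 7.70 in the tumours and 11.48 in the cerebellum). Of 5 oligodendrocyte markers 4 fell (6.60, 7.60 and 7.64 in the tumours and 9.56 in the cerebellum). Of 6 astrocyte markers 4 fell (8.49, 9.40 and 9.41 in the tumours and 10.61 in the cerebellum). Gfap was higher in every tumour, at 8.15, 9.33 and 8.83 against 7.60 in the cerebellum. Of 6 microglia and macrophage markers 3 rose, with a mean level of 8.71, 8.70 and 8.39 in the tumours and 6.72 in the cerebellum. Of 5 endothelial markers 1 fell and 0 rose (6.79, 7.54 and 6.70 in the tumours and 7.34 in the cerebellum). Of 4 choroid plexus markers 0 rose and 0 fell (7.11, 5.01 and 7.23 in the tumours and 5.88 in the cerebellum). The part of these cell types in the results below was not tested. In bulk tissue, fewer cells of a type and less RNA per cell cannot be told apart.

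The median ribosome biogenesis gene had a level 1.81-fold higher in the tumours than in the cerebellum, and 11 of the 40 passed the test. Limma was fitted over all named genes with the 3 tumours as one group, and genes with a Benjamini-Hochberg adjusted p under 0.05 are called. Of the 40 genes, 11 rose (27.5%), against 6.70% of all named genes and 12.1% of those whose mean level lay above the median. None fell, against 9.30% of all named genes, and at an unadjusted p under 0.05 there were 28 higher and 0 lower, against 13.8% and 15.9% of all named genes. The genes that rose were Polr1b, Polr1a, Tcof1, Fbl, Nop58, Nolc1, Noc4l, Heatr1, Utp20, Ddx21 and Npm1. The count was 25 without the SmoM2 tumour at 2 months, 8 without that at 1 month and 2 without the PtchLacZ/+ tumour, when 13.5%, 4.98% and 3.15% of all named genes were called higher. Nop58 and Ddx21 passed under all 8 alternative settings, with an adjusted p of 0.0453 or less.

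All 3 tumours lay above the cerebellum for 38 of the 40 genes (95%), against 38.1% of named genes. The mean of the tumours was at least 2-fold above the cerebellum for 15 of them (37.5%), against 7.48% of named genes. Of the 15, 10 passed the test. Among genes with a mean level above the median, 40.1% had all 3 tumours above the cerebellum and 12.9% were at least 2-fold higher. The median difference of the 40 genes was 0.79 in the PtchLacZ/+ tumour, 1.12 in the SmoM2 tumour at 2 months and 0.61 in that at 1 month, on the log2 scale, where the medians of all named genes were 0.03, 0.07 and 0.01. For 32 genes the difference from the cerebellum was positive and larger than the whole range of the 3 tumours, as it was for 25.3% of all named genes. The other 8 were Bysl, Nop10, Nop14, Rrp12, Nip7, Bop1, Noc3l and Gnl2. Only the tumours gave an estimate of spread, since there was 1 cerebellum, whose own variation is unknown.

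**Figure D1:**
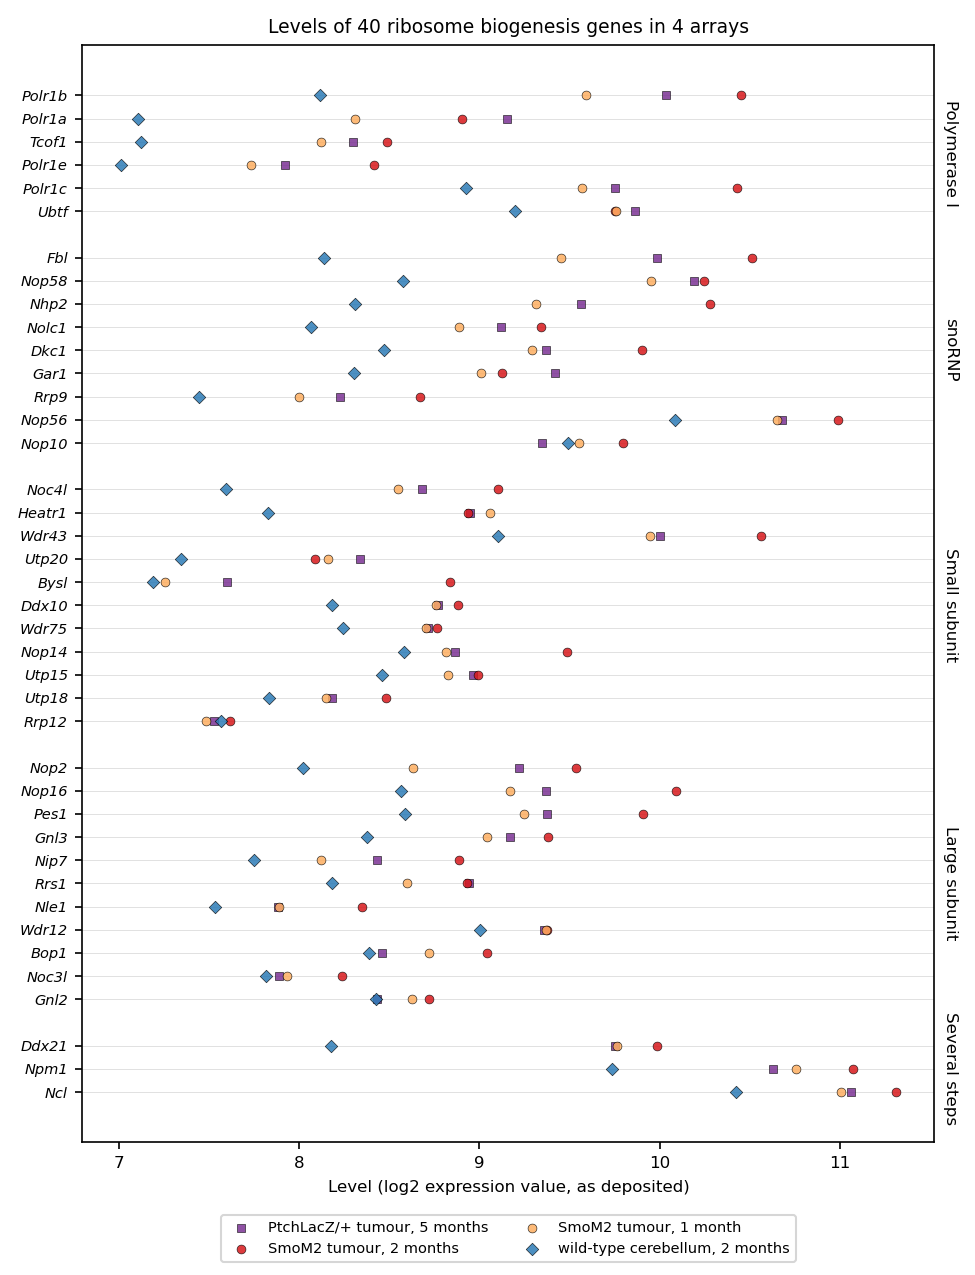
Levels of the 40 measured ribosome biogenesis genes (horizontal axis, log2 expression value), grouped by step, with 1 point per array. The cerebellum (diamonds) is lowest for 38 genes, and the SmoM2 tumour at 2 months (red circles) is the highest of the 4 arrays for 34.

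Promoter sequences from RefSeq (build GRCm38.p6) were found for 33 of the 40 measured genes, as windows of 300 bases with 250 before the gene's start. They were searched for the E-box CACGTG, the motif bound by Myc-family factors, which reads the same on both strands, for the GC box GGGCGG, bound by Sp-family factors, and for the CCAAT box, bound by NF-Y, the last 2 on both strands. An E-box was present for 6 of the 33 genes (18.2%), against 8.09% of 27025 genes in the table, and in 7.15% of all 32851 windows. A GC box was present for 25 (75.8%), against 38.2% of genes and 35.7% of windows. A CCAAT box was present for 14 (42.4%), against 41.1% of genes and 37.4% of windows. No E-box overlapped a GC box. The E-box stretches of the 6 genes are shown because Myc-family factors are known to bind this motif at ribosome biogenesis genes and Mycn, a member of that family, was at 11.14, 10.77 and 11.09 in the tumours and 6.34 in the cerebellum. A match describes the letters of the window and not binding. The part of Mycn in these genes' levels was not tested. The E-box is in capitals, the strand is that of the gene, and the Utp20 stretch ends with its window.
Nop2 (chr6:125131811-125131840, plus strand): gtgtccctggatCACGTGtgttccggtgcc
Pes1 (chr11:3963965-3963994, plus strand): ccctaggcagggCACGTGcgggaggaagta
Nle1 (chr11:82908355-82908384, minus strand): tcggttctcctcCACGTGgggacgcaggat
Utp18 (chr11:93885769-93885798, minus strand): gcgagcgccggtCACGTGgcttgcggcggc
Utp20 (chr10:88826765-88826789, minus strand): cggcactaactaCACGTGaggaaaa
Wdr43 (chr17:71616220-71616249, plus strand): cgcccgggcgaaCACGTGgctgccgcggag

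The first base of the E-box lay 60 bases before the gene's start for Nop2, 20 before it for Utp18, and at base 3 (Pes1), 18 (Wdr43), 24 (Nle1) and 38 (Utp20) from the start. The differences of these 6 genes between tumours and cerebellum ran from 0.44 to 1.11 with a median of 0.89, and the median of the 27 genes without the motif was 0.86. The other motifs had the lower median among genes that held them, at 0.82 with and 0.90 without a GC box, and 0.66 with and 0.99 without a CCAAT box. None of these differences was tested. Polr1b, which had the largest difference of the 40 genes, had no E-box in its window and 1 GC box, in capitals below, 42 bases before the start.
Polr1b (chr2:129100746-129100995, plus strand): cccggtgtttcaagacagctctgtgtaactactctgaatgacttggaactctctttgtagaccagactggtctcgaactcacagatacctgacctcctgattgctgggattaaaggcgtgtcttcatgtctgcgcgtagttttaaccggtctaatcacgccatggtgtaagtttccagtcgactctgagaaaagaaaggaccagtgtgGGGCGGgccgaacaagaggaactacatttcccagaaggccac

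Of the 6 polymerase I genes, 3 rose (50%, against 6.70% of all named genes). All 6 were higher in every tumour, as were 38.1% of named genes, with a median difference of 1.10 on the log2 scale. Polr1b, the second largest subunit of the enzyme, was at 10.03, 10.45 and 9.59 in the tumours and 8.12 in the cerebellum. It rose by 1.91 ± 0.35 (limma standard error, adjusted p = 0.027), or 3.75-fold. Polr1a, the largest subunit, which forms the catalytic centre with Polr1b, was at 9.16, 8.91 and 8.31 in the tumours and 7.11 in the cerebellum, a rise of 1.68 ± 0.36 (adjusted p = 0.0379). Tcof1 (treacle), a nucleolar factor that supports polymerase I transcription, was at 8.30, 8.49 and 8.12 in the tumours and 7.12 in the cerebellum, a rise of 1.18 ± 0.21 (adjusted p = 0.0243). These levels did not overlap between tumours and cerebellum, and the PtchLacZ/+ tumour was the highest array for Polr1a while the SmoM2 tumour at 2 months was the highest for Polr1b and Tcof1.

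The rest of the polymerase I group did not pass. Polr1e, a subunit of the enzyme's mobile heterodimer, differed by 1.01 ± 0.31 (adjusted p = 0.0953). Polr1c, which RNA polymerases I and III share, differed by 0.99 ± 0.37 (adjusted p = 0.153). Ubtf, the factor that binds ribosomal gene promoters and the transcribed repeats, was at 9.87, 9.75 and 9.76 in the tumours and 9.20 in the cerebellum. Its difference of 0.60 ± 0.17 was the smallest of the group (adjusted p = 0.0816), although the tumours lay close together. Polr1a lies on chromosome 6, as does Nop2 of the large subunit group. There the median difference of other genes above the median level was set against that of the remaining chromosomes. It exceeded the latter by 0.31 in the PtchLacZ/+ tumour, 0.21 in the SmoM2 tumour at 2 months and -0.09 in that at 1 month. The part of this shift in the Polr1a and Nop2 values was not tested.

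Of the 9 snoRNP genes, 3 rose (33.3%, against 6.70% of all named genes), with a median difference of 1.05 for the group. Fbl (fibrillarin), the methyltransferase of box C/D snoRNPs, was at 9.99, 10.51 and 9.45 in the tumours and 8.14 in the cerebellum, a rise of 1.85 ± 0.42 (adjusted p = 0.0465). A further Fbl probe set was at 9.19, 9.56 and 9.03 in the tumours and 7.54 in the cerebellum, a difference of 1.72. Nop58, a scaffold protein of the same particles, was at 10.19, 10.25 and 9.96 in the tumours and 8.58 in the cerebellum and rose by 1.56 ± 0.20 (adjusted p = 0.0106), or 2.94-fold. Its partner Nop56 was higher in every tumour as well, with a difference of 0.69 ± 0.21 (adjusted p = 0.1). Nolc1, a chaperone of snoRNPs that moves between nucleolus and Cajal bodies, was at 9.12, 9.34 and 8.89 in the tumours and 8.07 in the cerebellum and rose by 1.05 ± 0.23 (adjusted p = 0.0434).

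The 4 core proteins of box H/ACA snoRNPs, which turn uridine into pseudouridine, did not have like values. Nhp2 was at 9.57, 10.28 and 9.32 in the tumours and 8.31 in the cerebellum, a difference of 1.41 ± 0.40 (adjusted p = 0.0821). Dkc1 (dyskerin), the pseudouridine synthase, differed by 1.05 ± 0.29 (adjusted p = 0.079) and Gar1 by 0.88 ± 0.22 (adjusted p = 0.0628). Nop10, which binds dyskerin, was at 9.35, 9.80 and 9.55 in the tumours and 9.49 in the cerebellum, so that the PtchLacZ/+ tumour lay below the cerebellum and the SmoM2 tumours above it (difference 0.07 ± 0.23, adjusted p = 0.888). The difference of Nop10 from the other 3 was not tested. Rrp9, a protein of the U3 snoRNP that guides the first cuts of the precursor, differed by 0.86 ± 0.30 (adjusted p = 0.133).

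Among 11 small subunit genes 3 rose (27.3%, against 6.70% of all named genes), and the median difference of the group was 0.62. Noc4l, which in yeast works with Nop14 in small subunit export, was at 8.68, 9.11 and 8.55 in the tumours and 7.60 in the cerebellum, a rise of 1.18 ± 0.27 (adjusted p = 0.0455). Heatr1, a processome protein that is also needed for polymerase I transcription, was at 8.95, 8.94 and 9.06 in the tumours and 7.83 in the cerebellum and rose by 1.15 ± 0.17 (adjusted p = 0.015). It was the only one of the 40 genes with its highest level in the SmoM2 tumour at 1 month. Utp20, a processome protein, was at 8.34, 8.09 and 8.16 in the tumours and 7.35 in the cerebellum, a rise of 0.85 ± 0.19 (adjusted p = 0.0423).

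The other 8 small subunit genes did not pass. Wdr43, a processome protein, was at 10.00, 10.56 and 9.94 in the tumours and 9.10 in the cerebellum (1.07 ± 0.30, adjusted p = 0.0784). The processome proteins Wdr75, Utp15 and Utp18 differed by 0.48, 0.46 and 0.44, Nop14 by 0.48 and the helicase Ddx10 by 0.62, with adjusted p from 0.0743 to 0.421. Wdr75 and Ddx10 hardly varied between tumours, with an SD over the 3 tumours of 0.0329 and 0.0681. Bysl, which binds the small subunit precursor late in its assembly, was at 7.60, 8.84 and 7.26 in the tumours and 7.19 in the cerebellum (0.71 ± 0.63, adjusted p = 0.555), with the largest SD of the 40 genes (0.831). Rrp12, a factor in the export of subunits in yeast, was at 7.53, 7.62 and 7.48 in the tumours and 7.57 in the cerebellum, and was the only one of the 40 genes with a negative difference (-0.02 ± 0.17, adjusted p = 0.962).

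None of the 11 measured large subunit genes was called by limma, where 6.70% of all named genes were called higher. At an unadjusted p under 0.05 there were 4 higher, where 13.8% of all named genes were. Without the SmoM2 tumour at 2 months 3 were called (Pes1, Nop16 and Gnl3, adjusted p = 0.0216, 0.0284 and 0.021), and without that at 1 month 1 was (Nop2, adjusted p = 0.0403). In those fits 13.5% and 4.98% of all named genes were called higher, in that order. The median difference of the group was 0.64, and all 11 were higher in every tumour than in the cerebellum, as were 38.1% of named genes. Nop2, a methyltransferase of the large subunit RNA, was at 9.22, 9.53 and 8.63 in the tumours and 8.02 in the cerebellum (1.11 ± 0.37, adjusted p = 0.121). Nop16 was at 9.37, 10.09 and 9.17 in the tumours and 8.56 in the cerebellum (0.98 ± 0.39, adjusted p = 0.177). Their SDs over the 3 tumours were 0.457 and 0.484, and both differences were larger than the range of the 3 tumours (0.90 and 0.92). Nop2 lies on chromosome 6, whose shift is given above with Polr1a.

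Pes1, Bop1 and Wdr12 form the PeBoW complex, which is needed to process the RNA of the large subunit. Pes1 was at 9.38, 9.91 and 9.25 in the tumours and 8.59 in the cerebellum (0.92 ± 0.30, adjusted p = 0.117). Bop1 differed by 0.35 ± 0.27 (adjusted p = 0.482) and Wdr12 by 0.36 ± 0.16 (adjusted p = 0.225), or by 0.53 on its other probe set. Gnl3 (nucleostemin), a nucleolar GTPase of stem and tumour cells, differed by 0.82 ± 0.20 (adjusted p = 0.0589). The assembly factors Nip7, Rrs1 and Nle1 differed by 0.73, 0.64 and 0.51 (adjusted p = 0.219, 0.122 and 0.274). Noc3l differed by 0.21 ± 0.21 (adjusted p = 0.619). The GTPase gene Gnl2 had the lowest difference of the group, with levels of 8.44, 8.72 and 8.63 in the tumours and 8.43 in the cerebellum (0.17 ± 0.19, adjusted p = 0.668).

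Of the 3 abundant nucleolar proteins with several roles, 2 rose (66.7%, against 6.70% of all named genes). Ddx21, an RNA helicase of polymerase I transcription and rRNA processing, was at 9.75, 9.98 and 9.76 in the tumours and 8.18 in the cerebellum, a rise of 1.65 ± 0.19 (adjusted p = 0.00834), or 3.14-fold. Npm1 (nucleophosmin), a chaperone of ribosome assembly, was at 10.63, 11.07 and 10.76 in the tumours and 9.74 in the cerebellum and rose by 1.08 ± 0.23 (adjusted p = 0.0399). Ncl (nucleolin), which binds the nascent precursor, was at 11.06, 11.31 and 11.01 in the tumours and 10.43 in the cerebellum (0.70 ± 0.20, adjusted p = 0.0836). The tumours lay above the cerebellum for all 3 genes, as they did for 38.1% of named genes.

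**Figure D2:**
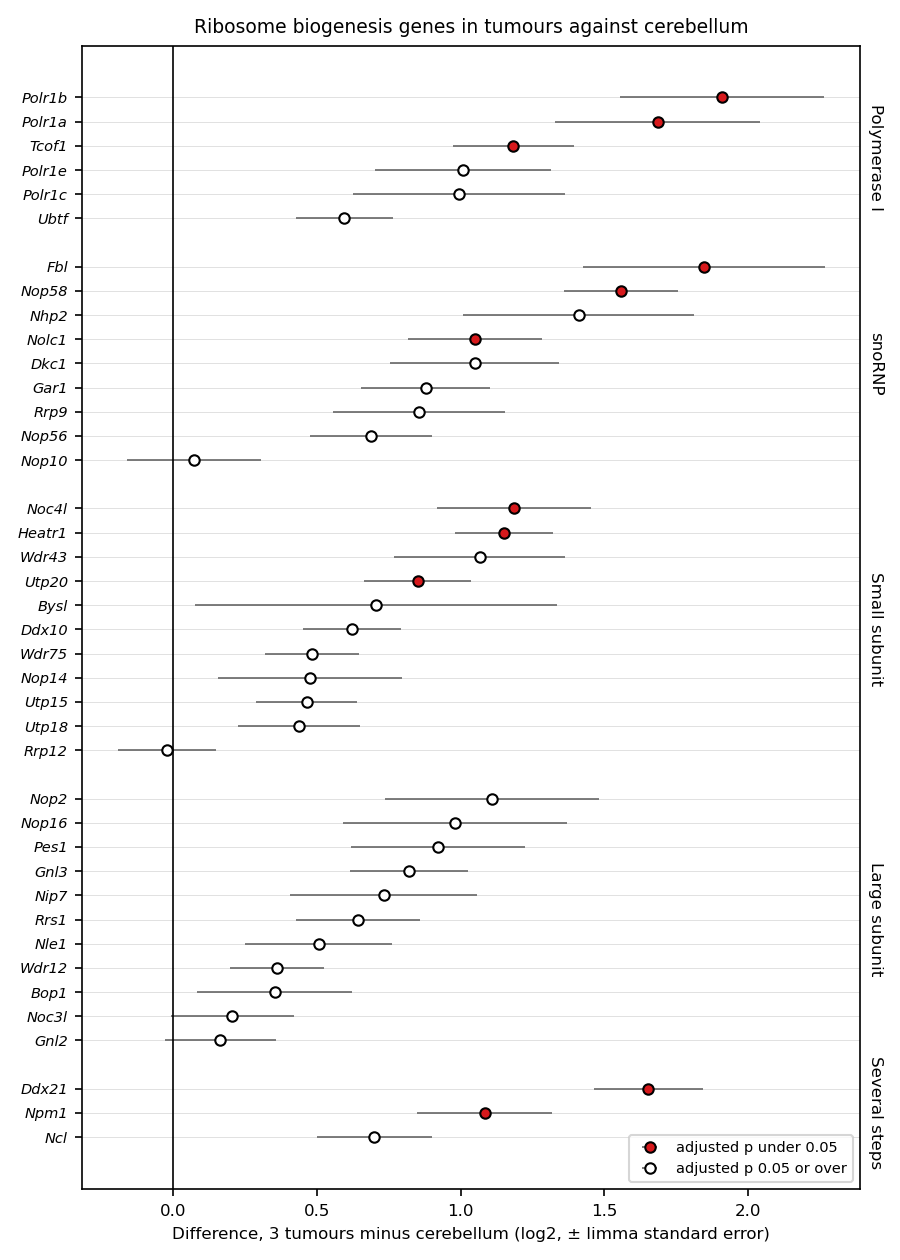
Difference of the 3 tumours from the cerebellum for each of the 40 genes (log2, with limma's standard error), grouped by step. Filled points mark the 11 genes with an adjusted p under 0.05 (27.5%, against 6.70% of all named genes called higher). None of the 11 measured large subunit genes is among them, while 12 of 46 in the wider list were called.

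The other genes of the pathway were read from a list of 124, of which 118 were measured. Of these, 17 rose (14.4%) and 0 fell, at a median difference of 0.47. Of all named genes 6.70% rose, and of those with a mean level above the median 12.1% did, which is near the share of this list. At an unadjusted p under 0.05 there were 43 higher and 4 lower, against 13.8% and 15.9% of all named genes. Rises numbered 2 of 8 polymerase I genes, 1 of 14 snoRNP genes, 1 of 37 small subunit genes, 12 of 46 large subunit genes and 1 of 13 exosome genes. The shares for polymerase I (25%) and large subunit genes (26.1%) were above that of all named genes. Those for snoRNP (7.14%), exosome (7.69%) and small subunit genes (2.7%) were near or below it. The count of 17 became 39 without the SmoM2 tumour at 2 months, 11 without that at 1 month and 1 without the PtchLacZ/+ tumour, when 13.5%, 4.98% and 3.15% of all named genes were called higher. The count of 0 lower became 5 without the SmoM2 tumour at 2 months (Znhit3, Rrp1, Ddx24, Gnl3l and Sbds, adjusted p = 0.00677 to 0.0347), and with centred arrays it became 3 (Znhit3, Ddx24 and Gnl3l, adjusted p = 0.0443 to 0.0481) beside 21 higher. With centred arrays 6.89% of all named genes were called higher. Whether steps differ in their share of calls was not tested.

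Taf1d, a subunit of the polymerase I selectivity factor, had the largest difference of these genes. It was at 9.87, 9.06 and 9.96 in the tumours and 7.33 in the cerebellum and rose by 2.30 ± 0.40 (adjusted p = 0.0224). The gene has 9 probe sets, and the value is that of the brightest. Other subunits of the same factor had smaller values of either sign: Taf1c differed by 0.45, Taf1a by -0.33 and Taf1b by -0.33, none called (adjusted p = 0.171 to 0.536). Mybbp1a, a nucleolar protein that represses polymerase I transcription, was at 9.97, 10.36 and 9.78 in the tumours and 8.38 in the cerebellum and rose by 1.66 ± 0.27 (adjusted p = 0.0193). Ftsj3, a factor of rRNA processing, was at 9.30, 9.65 and 9.34 in the tumours and 7.91 in the cerebellum and rose by 1.52 ± 0.22 (adjusted p = 0.0136).

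The lowest differences were those of Znhit3, an assembly factor of box C/D snoRNPs, Sbds, which frees large subunits of the anti-association factor Eif6, and the helicase Ddx24. Znhit3 was at 7.81, 8.12 and 7.73 in the tumours and 8.77 in the cerebellum (-0.88 ± 0.22, adjusted p = 0.0601). Sbds was at 8.03, 8.54 and 8.17 in the tumours and 9.09 in the cerebellum (-0.84 ± 0.25, adjusted p = 0.0928). Ddx24 was at 9.04, 9.37 and 9.24 in the tumours and 10.02 in the cerebellum (-0.81 ± 0.20, adjusted p = 0.0599). All 3 tumours lay below the cerebellum for each of them. Snu13, the core box C/D protein beside Fbl, Nop56 and Nop58, was at 11.45, 11.69 and 11.24 in the tumours and 11.37 in the cerebellum (0.09 ± 0.23, adjusted p = 0.866) on the brightest of its 4 probe sets.

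Ribosomal proteins, the products that these factors assemble with rRNA, are given for comparison. Of 53 cytoplasmic ribosomal protein genes with a probe set of their own, 28 rose (52.8%, against 6.70% of all named genes) and 0 fell. At an unadjusted p under 0.05 there were 45 higher and 0 lower, against 13.8% and 15.9% of all named genes. Their median difference was 1.03, where that of the 40 biogenesis genes was 0.85 and that of all named genes 0.04. Ribosomal protein genes have many near-identical pseudogenes, so their probe sets may also read other copies.

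**Figure D3:**
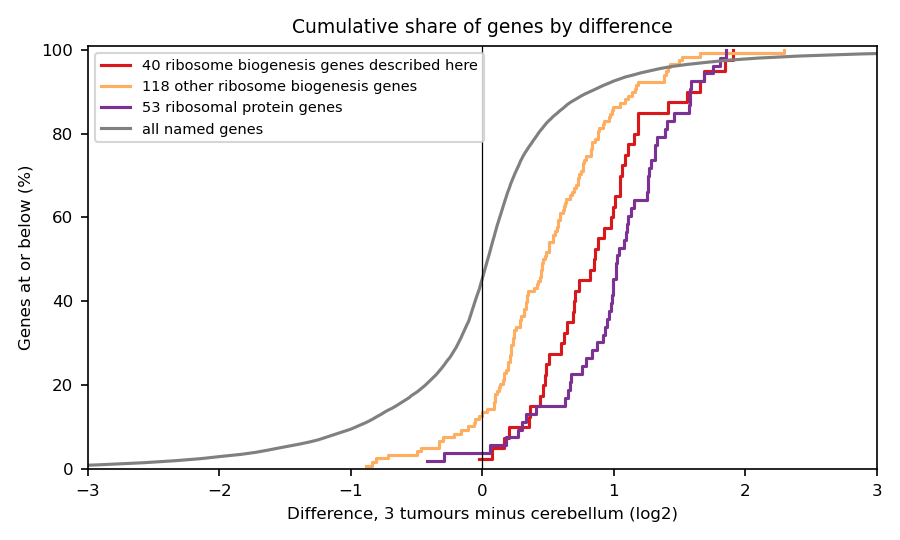
Share of genes (vertical axis, percent) at or below each difference between the 3 tumours and the cerebellum (horizontal axis, log2) for the 40 genes described here, 118 other ribosome biogenesis genes, 53 ribosomal protein genes and all 19938 named genes. The medians are 0.85, 0.47, 1.03 and 0.04, and the horizontal axis is cut at 3 on either side.

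The PtchLacZ/+ tumour was next compared with the 2 SmoM2 tumours, which asks whether the genotypes differ, although age differs too and cannot be told apart from genotype. With limma 0 of the 40 genes were called in either direction, and 0 had an unadjusted p under 0.05. Of all named genes, 0% were called, and 280 had an unadjusted p under 0.05. The test had 1 residual degree of freedom. The PtchLacZ/+ level lay between those of the SmoM2 tumours for 27 of the 40 genes (67.5%), against 45.1% of named genes. The largest difference was that of Polr1a, at 9.16 in the PtchLacZ/+ tumour and 8.91 and 8.31 in the SmoM2 tumours (0.55 ± 0.35), and the lowest was that of Bysl, at 7.60 in the PtchLacZ/+ tumour and 8.84 and 7.26 in the SmoM2 tumours (-0.44 ± 0.68). The median over the 40 genes was -0.10.

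Between the SmoM2 tumours, the one at 2 months had higher levels than the one at 1 month for 37 of the 40 genes (92.5%), against 59.8% of all named genes. The median difference, 2 months minus 1 month, was 0.34, and that of all named genes was 0.08. There was 1 array for each age, so no test was possible, and age cannot be told apart from the individual tumours or their arrays. The SmoM2 tumour at 2 months was the highest of the 4 arrays for 34 of the 40 genes (85%), against 35.5% of named genes. The PtchLacZ/+ tumour was the highest for Polr1a, Ubtf, Gar1, Utp20 and Rrs1.

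Bysl and Fbl were the 2 of the 40 genes that stood 2-fold or more apart, both higher at 2 months. Of all 19938 named genes, 331 (1.66%) were at least 2-fold higher at 2 months and 409 at least 2-fold lower. Bysl was 2.99-fold higher at 2 months (8.84 at 2 months and 7.26 at 1 month). Fbl was 2.08-fold higher (10.51 at 2 months and 9.45 at 1 month), and its other probe set was at 9.56 at 2 months and 9.03 at 1 month. Nhp2, Nop16 and Nop2 followed, with log2 differences of 0.97, 0.92 and 0.90. Ubtf, Utp20 and Heatr1 were the 3 genes with lower values at 2 months, and their differences were small (-0.0050, -0.07 and -0.12). By group, the median was 0.64 for polymerase I, 0.46 for snoRNPs, 0.17 for the small subunit and 0.34 for the large subunit. The other ribosome biogenesis genes had a median of 0.36, with 106 of 118 higher at 2 months, and the ribosomal protein genes a median of 0.36, with 49 of 53 higher.

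Several measures moved with this difference. Bysl, Polr1c and Wdr43 lie on chromosome 17, where the median difference from the cerebellum of other genes above the median level exceeded that of the remaining chromosomes by 0.38 in the SmoM2 tumour at 2 months and 0.02 in that at 1 month. The 3 genes were higher at 2 months by 0.62 to 1.58, and the median of the 37 other members was 0.34. Wdr46, a small subunit gene of the wider list on the same chromosome, was at 8.99 at 2 months and 7.61 at 1 month. Chromosomes here are those of the genes, and where each probe set matches, including that of Fbl, was not checked. Endothelial markers had a mean level of 7.54 at 2 months and 6.70 at 1 month, and choroid plexus markers one of 5.01 at 2 months and 7.23 at 1 month, with Ttr at 4.50 at 2 months and 11.27 at 1 month. That low Ttr level was under the same array's lower quartile of 5.17. The proliferation markers had a mean level of 10.71 at 2 months and 10.40 at 1 month. Genes above the median level had a median difference of 0.13. The part of these measures in the result was not tested.

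**Figure D4:**
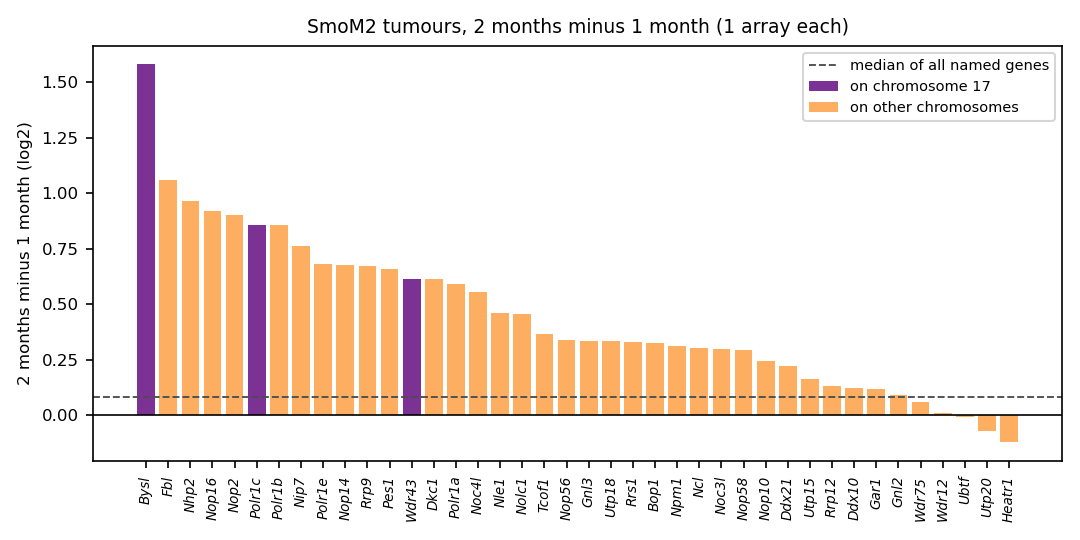
Difference between the SmoM2 tumours, 2 months minus 1 month (vertical axis, log2, 1 array each), for each of the 40 genes, with the 3 genes on chromosome 17 in purple bars and the median of all named genes (0.08) as a dashed line. The bars run from 1.58 for Bysl to -0.12 for Heatr1, and 37 are above 0.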

How the data were processed

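The authors deposited log2 expression values as 1 table of 35557 probe sets in 4 arrays and, per the submitters' processing notes, used Affymetrix Expression Console. The version, summarisation and normalization were not given in the sources used here, and the log2 scale was inferred from the values (2.71 to 14.9). They were used without further normalization or filter. The platform annotation gave 21789 probe sets 1 gene symbol, 1621 several and 12147 none. Each of 19938 genes was represented by its brightest probe set, judged by the mean of the 4 arrays (999 genes had several, among them 2 members). Groups came from the sample labels.

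Limma version 3.58.1 (R version 4.3.3) was fitted over all named genes. Residual degrees of freedom were 2 for tumour against cerebellum and 1 for PtchLacZ/+ against SmoM2. The code was also run on simulated data. The simulation gave the cerebellum the same spread as the tumours, and its changes were larger than those of most members. It therefore does not measure error rates in these data. Log2 differences of at least 1 were counted where no test was possible. The number of arrays limits the precision. Alternatives were quantile normalization, centred arrays, the mean of all probe sets, a filter at the median level, a trended prior variance and leaving out each tumour. Values in all arrays are given for the 3 members with the highest and the 1 with the lowest difference per step and for members 2-fold apart between the SmoM2 tumours, and for the 3 highest and 3 lowest of the other biogenesis genes, with a few others chosen after their values were seen (Nolc1, Utp20, Snu13 and Wdr46, and the differences of Taf1a, Taf1b and Taf1c). The members and lists were chosen with earlier results of these data known. Chromosomes are those of the genes in assembly GRCm38.p6, and the places of the probe sets were not checked.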

Additional observations from a re-analysis of the deposited data

Results flagged for a closer look

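Nop10 was the only one of the 40 genes for which both SmoM2 tumours lay on one side of the cerebellum and the PtchLacZ/+ tumour on the other. Against the cerebellum it differed by -0.15 in the PtchLacZ/+ tumour, and by 0.30 and 0.06 in the SmoM2 tumours at 2 months and 1 month. The difference of the PtchLacZ/+ tumour from the SmoM2 tumours was -0.33 ± 0.27 and was not called by limma (unadjusted p = 0.279, adjusted p = 1).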

How the results depend on the processing

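The median difference of the 40 genes between tumours and cerebellum stayed between 0.71 and 0.99 under the 8 alternatives. The number of genes that rose was 8 to 11 under the 5 alternatives that kept all arrays, and 2 to 25 when a tumour was left out. For the other ribosome biogenesis genes it was 10 with a trended prior variance and 1 to 39 when a tumour was left out. Without the PtchLacZ/+ tumour 9 members lost the call, with an adjusted p of 0.0691 to 0.162 (Polr1a, Polr1b, Tcof1, Fbl, Nolc1, Heatr1, Utp20, Noc4l and Npm1), and that fit had fewer arrays. Utp20 lost it under 5 alternatives (adjusted p = 0.0516 to 0.162) and Gnl3 gained it in centred arrays (adjusted p = 0.0463). Leaving out 1 tumour turned the sign of 2 small differences. Nop10 ranged from -0.043 without the SmoM2 tumour at 2 months to 0.183 without the PtchLacZ/+ tumour, and Rrp12 from -0.058 without the SmoM2 tumour at 2 months to 0.0090 without that at 1 month. The 2 genes that differed 2-fold between the SmoM2 tumours became 1 with quantile normalization, with the mean of all probe sets or, chosen after seeing the data, with centred arrays. Further checks chosen after seeing the data gave a median difference between these tumours of 0.27 with centred arrays, 0.32 with quantile normalization and 0.34 without the members on chromosome 17. None of the 40 genes was called by limma between PtchLacZ/+ and SmoM2 tumours under any of its 4 alternatives, and 0 had an unadjusted p under 0.05. No paired analysis was possible because the labels pair no samples.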
